A study of Homo sapiens with 4 samples.

Results

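The genes described here are those of the m6A writer complex together with METTL16, a second m6A methyltransferase. They were taken by symbol: METTL14, METTL3, WTAP, ZC3H13, VIRMA, CBLL1, RBM15, RBM15B and METTL16. All 9 were found, each on 1 row of the 20323 gene rows measured, and all 9 passed the filter on low counts. The least counted member was RBM15, at 348 to 451 counts per library. The RNA came from HCT-8, a human colorectal cancer line, in a form resistant to the drug 5-fluorouracil. Poly(A) RNA was sequenced from cells given a METTL14 overexpression plasmid (2 libraries, METTL14 replicates 1 and 2) or a negative control plasmid (2 libraries, control replicates 1 and 2). Cycloheximide, which blocks the elongating ribosome, was given to the cells at 100 ug/mL, to controls and METTL14 cells alike, so no library shows the resistant line without it. The sources used here do not give the promoter of the plasmid, the share of cells that took it up or the time after transfection. The series describes the experiment as repeated independently, and no label says which libraries were prepared together.

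N6-methyladenosine (m6A) is placed on messenger RNA in the nucleus by a heterodimer. METTL3 is the catalytic subunit, and METTL14 binds RNA and holds METTL3 in its active shape without catalysing the reaction itself. A larger set of proteins brings the heterodimer to its targets: WTAP is the adaptor, VIRMA the scaffold, ZC3H13 keeps the complex nuclear, CBLL1 (HAKAI) is a RING-finger protein, and RBM15 and RBM15B bind RNA. METTL16 works alone, among other targets on hairpins of the MAT2A messenger, which encodes the enzyme that makes S-adenosylmethionine, the methyl donor of all these enzymes.

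The difference between the enzymes can be read in the codons of their methyltransferase motif, shown because METTL14, the raised gene, is the subunit with a degenerate one. The sequences are from the coding part of the longest GENCODE release 29 protein-coding transcript, and capitals mark the 4 codons of the motif, counted from the start codon. They are codons 395 to 398 of METTL3 (Asp-Pro-Pro-Trp, the catalytic form), 192 to 195 of METTL14 (Glu-Pro-Pro-Leu, the inactive form) and 184 to 187 of METTL16 (Asn-Pro-Pro-Phe, a catalytic form).
METTL3: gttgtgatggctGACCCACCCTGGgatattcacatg
METTL14: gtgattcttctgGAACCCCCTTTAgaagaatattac
METTL16: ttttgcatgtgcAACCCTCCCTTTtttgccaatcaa

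The sites of METTL16 are shown because MAT2A is read beside METTL16 below. METTL16 methylates an adenosine inside the 9 letters in capitals, TACAGAGAA in DNA letters. They stand 5 times in the 3′ UTR of the longest MAT2A transcript (GRCh38 chromosome 2, plus strand, first site at 85543812 to 85543820 and last at 85545122 to 85545130). Each is printed with 10 bases on either side, as in GENCODE release 29. Of 19684 protein-coding genes, 644 (3.3%) held these letters in their longest transcript and 2 held them at least 5 times, a match of letters and not a measure of methylation.
MAT2A site 1: tggcgtaggcTACAGAGAAgccttcaagc
MAT2A site 2: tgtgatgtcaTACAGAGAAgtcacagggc
MAT2A site 3: ctggtgtagcTACAGAGAAaccagcttcc
MAT2A site 4: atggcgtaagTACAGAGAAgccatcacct
MAT2A site 5: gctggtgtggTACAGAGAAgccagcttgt

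Total counts were 19206661 to 20161082 per library. Between replicates, chi-square per degree of freedom was 3.29 for the METTL14 libraries and 28.77 for controls, and both pairs differed by more than sampling noise. The share of counts from mitochondrial genes was 5.99 and 6.26% in control and 9.85 and 10.25% in METTL14 libraries. All 10 epithelial markers looked at (such as EPCAM, KRT8 and CDH17) were at 1 CPM or more (counts scaled to library size). Their summed level was 11950 to 18270 CPM in the controls and 9178 to 9399 CPM with METTL14. The sum is weighted to the most abundant markers and does not show how many of the 10 fell. CDH17 went the other way, from 35.27 and 42.13 to 140.1 and 142.4 CPM (log2 fold change 1.87, edgeR adjusted p = 9.2e-05). Of the markers of other cells, 4 of 6 for fibroblasts reached 1 CPM (summed 12.64 to 19.63 CPM per library), and none of 5 for leukocytes and 4 for endothelium did, with CD3E and KDR at 0 in all 4 libraries. The part of these shifts in the results below was not tested. In the bulk libraries fewer cells with a transcript and less of it per cell cannot be told apart.

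METTL14 was the member the plasmid was meant to raise, so its rise checks the labels. Its gene (ENSG00000145388) lies on GRCh38 chromosome 4, 118685368 to 118715433, on the plus strand. The level was 24.55 and 30.69 CPM in the controls and 390.1 and 420.7 CPM with the plasmid. Both METTL14 libraries lay far above both controls, and the rise was 14.7-fold (95% interval 11.7 to 18.5, edgeR adjusted p = 7.33e-05). Among 12700 genes tested it ranked 81st from the top by log2 fold change. Counts per gene do not tell the transcript of the plasmid from that of the chromosome.

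**Figure D1:**
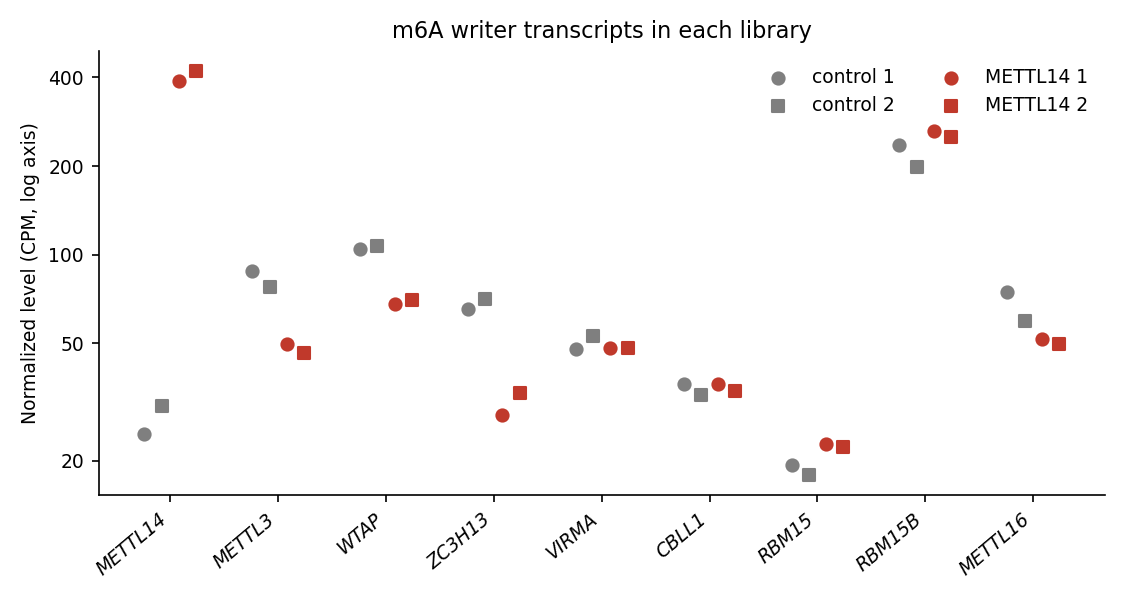
Normalized level (CPM, log axis) of the 9 writer genes in each of the 4 libraries; grey points are controls, red points are METTL14 libraries, circles are replicate 1 and squares replicate 2. METTL14 stands at 24.55 to 30.69 CPM in the controls and 390.1 to 420.7 CPM with the plasmid, and the red points of METTL3, WTAP, ZC3H13 and METTL16 lie below the grey ones.

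Levels of different genes were compared as CPM per kb of merged exon length. In the controls the order was RBM15B (32.8 ± 3.91, SD, n = 2, as for the values that follow), WTAP (16.5 ± 0.280), METTL3 (14.1 ± 1.26), METTL16 (7.53 ± 1.23), ZC3H13 (6.64 ± 0.371), CBLL1 (6.37 ± 0.381), VIRMA (4.69 ± 0.342), METTL14 (4.03 ± 0.632) and RBM15 (3.99 ± 0.234). METTL14 was thus eighth of 9, and its control values overlapped those of its neighbours VIRMA and RBM15. ZC3H13 overlapped both METTL16 and CBLL1. With the plasmid METTL14 came first (59.1 ± 3.16 CPM per kb), ahead of RBM15B (38.8 ± 1.27), WTAP (10.8 ± 0.268) and METTL3 (8.16 ± 0.438), and ZC3H13 (3.04 ± 0.360) came last. The length used matters to this order: per kb of the longest coding transcript METTL3 was first and METTL14 ninth in the controls, and per kb of coding sequence METTL14 was sixth. With the plasmid METTL14 was first by each of these lengths. RBM15B shares 20.0% of its exon bases with the antisense gene DCAF1, so its place is less certain.

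The transcript balance of the heterodimer turned over. METTL14 stood at 0.240 and 0.340 of METTL3 per kb of merged exons in the controls, and at 6.71 and 7.81 times METTL3 with the plasmid. In the control libraries METTL3 was the more abundant transcript of the pair, and in the METTL14 libraries it was the less abundant. The mean ratio went from 0.290 ± 0.0709 to 7.26 ± 0.776 (SD, n = 2), a 25.1-fold change. Within it, METTL14 itself was 14.7-fold higher and METTL3 1.72-fold lower. The length cancels from the change of ratio only because the same METTL14 length was used in both groups. No separate length was used for the plasmid transcript, so levels per kb, ratios and shares with the plasmid rest on that choice. The ratio itself depends on the length: it was 0.429 and 10.8 per kb of coding sequence, and 0.102 and 2.55 per kb of the longest coding transcript. METTL14 was below METTL3 in both controls and above it in both METTL14 libraries by each of these lengths.

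Against each of the other partners the ratio also went up, but METTL14 was not below every partner in the controls. By merged exons it was at 0.861 and 1.17 of RBM15 there, and per kb of coding sequence it was already above ZC3H13 (1.37 and 1.58), VIRMA (2.04 and 2.30) and RBM15 (2.71 and 3.68). METTL14 was 0.219 and 0.267 of WTAP in the controls and 5.38 and 5.60 times WTAP with the plasmid, per kb of merged exons. The largest change of ratio was against ZC3H13, which fell the most: 0.561 and 0.648 became 20.4 and 18.6, or 32.3-fold. The smallest was against RBM15, which stood at 11.6 and 12.9 with the plasmid, or 12.1-fold. Against RBM15B, the most abundant partner per kb of merged exons, METTL14 was at 0.101 and 0.149 in the controls and at 1.43 and 1.62 with the plasmid. VIRMA and CBLL1, which did not pass the test below, gave 0.805 and 0.908 against 12.7 and 13.7 for VIRMA, and 0.539 and 0.733 against 8.53 and 9.72 for CBLL1. METTL16, which is no part of the complex, gave 0.426 and 0.671 against 9.83 and 11.0. In every one of the 8 ratios both METTL14 libraries lay above both controls. METTL14, itself 14.7-fold higher with the plasmid, is the numerator of all 8, so their common rise says nothing about the partners. METTL14 made up 4.17% of the summed level of the 9 genes in the controls and 41.8% with the plasmid (6.09 and 53.3% per kb of coding sequence, 2.81 and 34.6% per kb of the longest coding transcript).

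**Figure D2:**
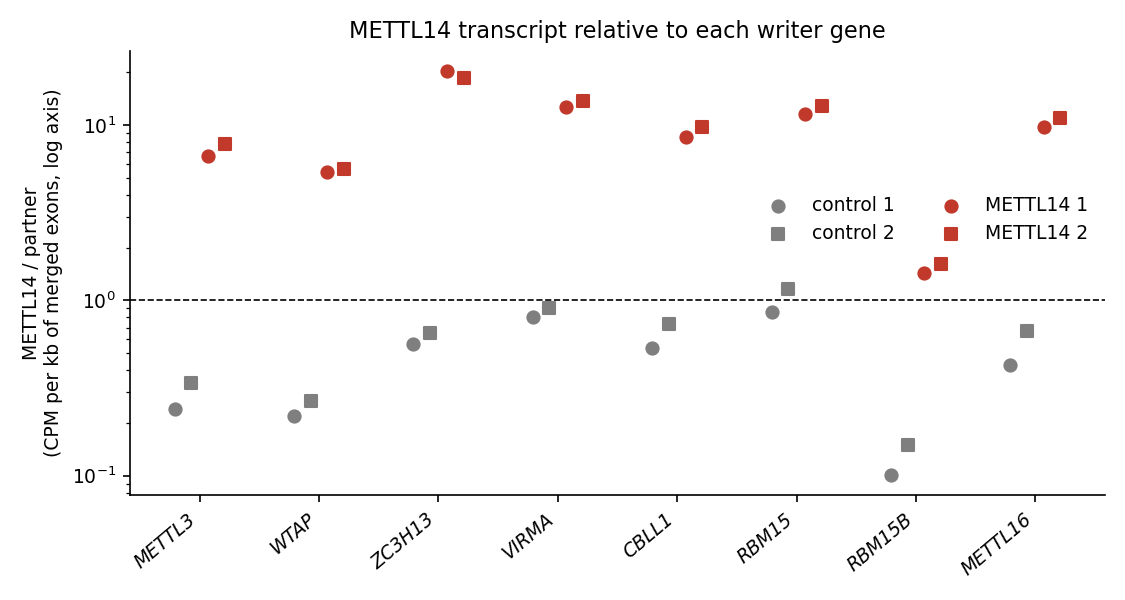
METTL14 level divided by that of each of the 8 other writer genes (CPM per kb of merged exons, log axis) in each library; grey points are controls, red points METTL14 libraries, circles replicate 1, squares replicate 2, and the dashed line is a ratio of 1. All red points lie above 1, from 1.43 (RBM15B) to 20.4 (ZC3H13), and all grey points but 1 of RBM15 (1.17) lie below it.

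No partner transcript rose as METTL14 did, though RBM15 and RBM15B lay above both controls in both METTL14 libraries without passing the test. Of the 8, none was called higher and 4 were called lower (METTL3, WTAP, ZC3H13 and METTL16), where 27.0% of all genes tested were called higher and 28.1% lower (55.1% in either direction, edgeR quasi-likelihood test, adjusted p below 0.05). Their median log2 fold change was -0.24, beside -0.01 over all genes. The groups did not overlap for 7 of the 9 genes, and 79.8% of all genes tested did not overlap either, so this count is near the background.

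METTL3, the catalytic subunit (ENSG00000165819, GRCh38 chromosome 14, 21498133 to 21511375, minus strand), stood at 88.07 and 77.6 CPM in the controls and 49.94 and 46.29 CPM with METTL14. The groups did not overlap, and METTL3 was 1.72-fold lower (log2 fold change -0.78, SE 0.111, edgeR adjusted p = 0.00103). A lower log2 fold change was found for 14.3% of all genes tested. TOX4, an antisense neighbour, shares 388 bases with METTL3 (6.6% of its exon length), and TOX4 itself stood at 73.75 to 75.95 CPM in the controls and 69.92 to 69.96 CPM with METTL14 (edgeR adjusted p = 0.404).

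WTAP, the adaptor between the heterodimer and the other subunits (chromosome 6, 159725585 to 159756319, plus strand), had 104.9 and 107.4 CPM in the controls and 67.87 and 70.3 CPM with METTL14. The groups did not overlap, and replicates lay 0.03 (controls) and 0.05 (METTL14) apart on the log2 scale. WTAP was 1.54-fold lower (log2 fold change -0.62, SE 0.0943, edgeR adjusted p = 0.0014). It shares 298 bases (4.6% of its exon length) with the antisense gene SOD2, which stood at 76.67 to 80.42 CPM in the controls and 78.86 to 80.58 CPM with METTL14 (edgeR adjusted p = 0.863).

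ZC3H13, the zinc-finger subunit (chromosome 13, 45954465 to 46052759, minus strand), fell most of the members. It had 65.49 and 70.87 CPM in the controls against 28.62 and 33.84 CPM with METTL14, with no overlap. It was 2.18-fold lower (log2 fold change -1.13, SE 0.124, edgeR adjusted p = 0.000379), and 7.2% of genes tested had a lower log2 fold change. No other gene of the files shares its exons.

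VIRMA and CBLL1 lay at about the same level in both groups. VIRMA, the scaffold, had 47.86 and 53.06 CPM in the controls and 48.14 and 48.32 CPM with METTL14, and its groups overlapped (log2 fold change -0.07, 95% interval -0.32 to 0.19, edgeR adjusted p = 0.634). CBLL1 (chromosome 7, 107743697 to 107761667, plus strand) had 36.41 and 33.46 against 36.53 and 34.58 CPM, again overlapping (0.03, 95% interval -0.24 to 0.29, edgeR adjusted p = 0.865). The intervals run down to 0.801 of the control level for VIRMA and up to 1.22 times it for CBLL1.

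RBM15 and RBM15B, the RNA-binding pair, lay above the controls in both METTL14 libraries, and neither passed the test. RBM15 (chromosome 1, 110338506 to 110346681, plus strand) had 19.4 and 17.86 CPM in the controls and 22.81 and 22.28 CPM with METTL14 (log2 fold change 0.28, 95% interval -0.02 to 0.57, edgeR adjusted p = 0.0974). RBM15B (chromosome 3, 51391268 to 51397908, plus strand) had 236.0 and 199.3 against 263.7 and 251.7 CPM (0.24, 95% interval -0.02 to 0.51, edgeR adjusted p = 0.106). Without control replicate 1 the values were 0.34 for RBM15 and 0.37 for RBM15B. That fit leaves 1 control, so its spread comes from the METTL14 pair alone and misses that of the controls. RBM15B was called higher with library totals in place of TMM scaling (0.30, edgeR adjusted p = 0.0309) and with upper quartile scaling (0.29, edgeR adjusted p = 0.0319). Without control replicate 2 its value was 0.12. Its overlap with DCAF1 covers 1325 bases, and DCAF1 was lower (log2 fold change -0.34, edgeR adjusted p = 0.0276).

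**Figure D3:**
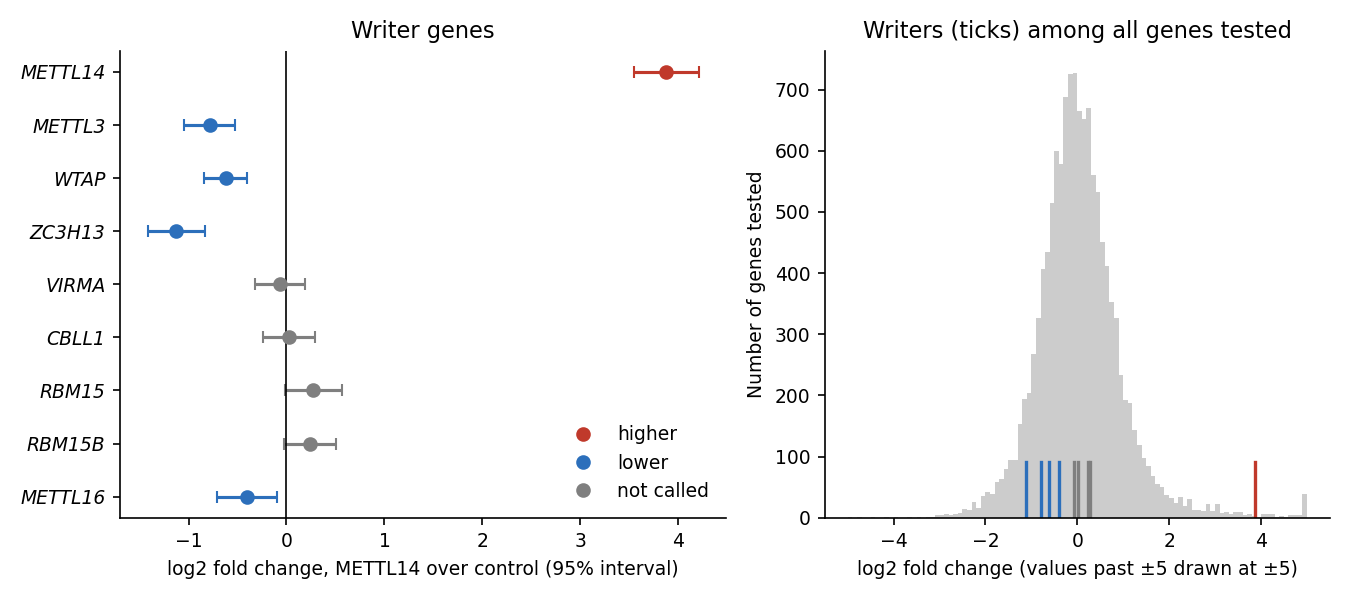
Left, log2 fold change of each writer gene (METTL14 over control) with its 95% interval, coloured by its call; right, the same values as ticks on the distribution over the 12700 genes tested. METTL14 stands alone at 3.88, the 4 genes called lower lie between -1.13 and -0.41, and the 8 partners all lie inside the bulk of the distribution.

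METTL16, the separate methyltransferase (chromosome 17, 2405562 to 2511891, minus strand), had 75.01 and 59.53 CPM in the controls and 51.69 and 49.9 CPM with METTL14. The groups did not overlap, but the controls lay 0.33 apart on the log2 scale, close to the difference between the groups (log2 fold change -0.41, SE 0.132, edgeR adjusted p = 0.0335). The call was lost without METTL14 replicate 1 (-0.43, SE 0.22) and without METTL14 replicate 2 (-0.38, SE 0.219). Without control replicate 1, the higher of the controls, the value was -0.23 (SE 0.089) and the call held. A fit without 1 library takes its spread from the pair left whole, so these calls depend on that pair as well as on METTL16.

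MAT2A, the messenger that carries the METTL16 sites printed above, fell more than METTL16. It had 293.8 and 226.7 CPM in the controls and 110.9 and 105.3 CPM with METTL14, 2.41-fold lower (log2 fold change -1.27, SE 0.139, edgeR adjusted p = 0.000367). Control replicate 1 was the higher control for MAT2A as for METTL16, which is not particular to these genes. It was also the higher for METTL3, CBLL1, RBM15 and RBM15B, and the lower for METTL14, WTAP, ZC3H13 and VIRMA. Counts per gene do not separate the spliced MAT2A messenger from its form with a retained intron.

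**Figure D4:**
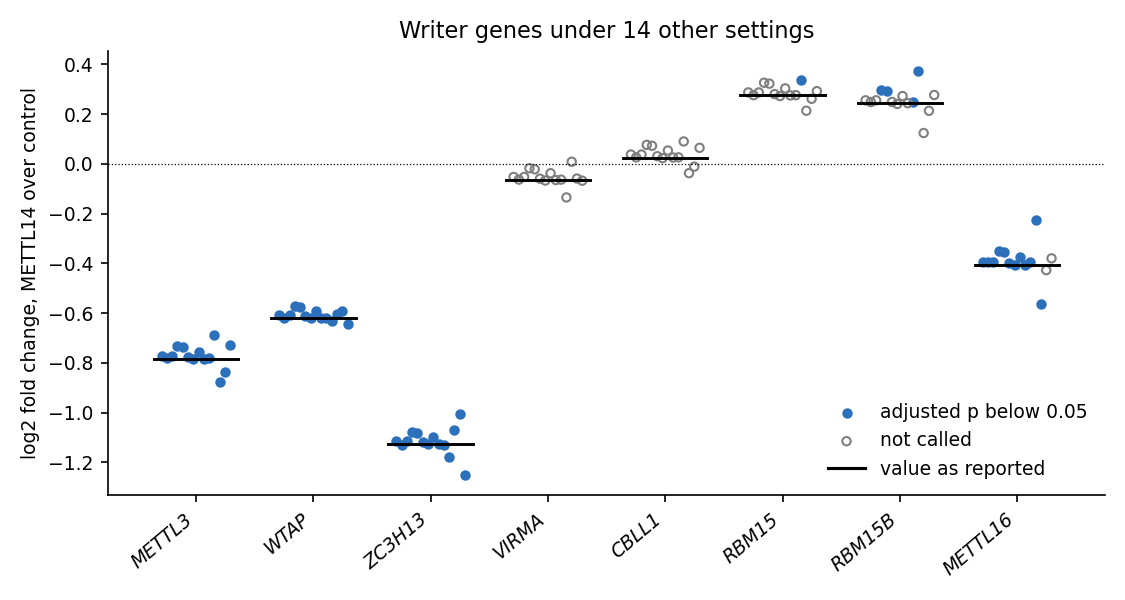
Log2 fold change (METTL14 over control) of the 8 partners under each of 14 other settings of tool, scaling, filter and libraries; filled points passed an adjusted p of 0.05, open points did not, and the bar is the value as reported. Settings without 1 library take their spread from the pair left whole. METTL3, WTAP and ZC3H13 were called lower in all 14, METTL16 in 12, RBM15B was called higher in 4 and RBM15 in 1, and VIRMA and CBLL1 in none.

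The promoters of METTL3, ZC3H13 and WTAP are shown because these complex members were all called lower. Each runs from 250 bases before to 50 bases after the RefSeq start (GRCh38.p14, read along the gene): chr14:21511291-21511590 (minus strand) for METTL3, chr13:46052697-46052996 (minus) for ZC3H13 and chr6:159726867-159727166 (plus) for WTAP, which has a further RefSeq start. Capitals mark any of 7 motifs searched on both strands: GGGCGG (GC box), CCAAT, TTTCCCGC and TTTGGCGC (E2F forms), CCGGAAG (ETS), TGACGTCA (CRE) and AAGATGGC (YY1).
METTL3: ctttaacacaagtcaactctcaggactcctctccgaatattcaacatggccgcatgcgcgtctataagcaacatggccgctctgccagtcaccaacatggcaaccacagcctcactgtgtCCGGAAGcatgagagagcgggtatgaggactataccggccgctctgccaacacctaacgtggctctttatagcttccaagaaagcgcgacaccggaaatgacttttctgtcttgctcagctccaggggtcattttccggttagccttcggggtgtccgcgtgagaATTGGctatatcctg
ZC3H13: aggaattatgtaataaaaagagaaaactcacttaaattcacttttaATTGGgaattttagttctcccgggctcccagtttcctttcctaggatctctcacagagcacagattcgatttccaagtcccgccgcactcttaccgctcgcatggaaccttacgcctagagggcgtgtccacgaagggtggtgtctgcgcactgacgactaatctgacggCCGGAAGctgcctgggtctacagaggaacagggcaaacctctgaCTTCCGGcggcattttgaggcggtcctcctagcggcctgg
WTAP: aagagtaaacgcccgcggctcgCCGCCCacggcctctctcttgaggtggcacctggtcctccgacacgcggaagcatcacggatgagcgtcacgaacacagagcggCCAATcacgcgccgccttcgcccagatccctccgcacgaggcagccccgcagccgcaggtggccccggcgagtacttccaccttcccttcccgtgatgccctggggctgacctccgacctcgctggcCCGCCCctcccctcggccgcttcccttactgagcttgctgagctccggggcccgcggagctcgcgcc
Each of these windows held a CCAAT box, which 34.6% of 35116 promoters hold, but the window of the other WTAP start held none. CCAAT is also in the windows of CBLL1 and RBM15, which were not called, and of METTL16. The window of METTL14 holds it too, but its counts do not tell the plasmid transcript from the chromosomal one. METTL3 held 1 ETS match and ZC3H13 2 (10.3% of promoters), and METTL14 and CBLL1 hold it too. WTAP held 2 GC boxes in the window printed and 4 in that of its other start (45.0% of promoters). None of the 8 members with a RefSeq promoter held either E2F form (1.6 and 0.7% of promoters) or the CRE (1.8%) in this window.

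By distance over the 4 libraries (log2 CPM centred on each gene's mean), the genes most like METTL3 of 9538 compared were TUBB4B, a beta-tubulin (0.0281), GET3, a factor of tail-anchored protein insertion (0.0308), and DBNL, an actin-binding protein (0.0337). TUBB4B stood at 1692 and 1526 CPM in the controls and 964.8 and 909.3 CPM with METTL14. Those most like ZC3H13 were WDR54 (0.0332), FAM216A (0.0433) and RIOX2 (0.0443), and WDR54 stood at 23.72 and 26.22 against 10.17 and 11.96 CPM. With 4 libraries many genes share such a pattern.

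BCLAF1 and THRAP3, nuclear proteins found with WTAP and outside the core complex, both fell, as did 28.1% of all genes tested. BCLAF1 had 188.3 and 187.2 CPM in the controls and 35.81 and 37.65 CPM with METTL14, 5.11-fold lower (log2 fold change -2.35, SE 0.0999, edgeR adjusted p = 7.33e-05). It was the 69th lowest log2 fold change of 12700. THRAP3 had 256.2 and 241.3 against 101.4 and 108.3 CPM, 2.37-fold lower (-1.25, SE 0.0999, edgeR adjusted p = 0.000149). The fall of BCLAF1 was thus larger than that of any writer gene.

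The erasers, which remove m6A, were both called higher, as were 27.0% of all genes tested. FTO went from 36.52 and 33.0 to 59.19 and 56.62 CPM (log2 fold change 0.74, edgeR adjusted p = 0.00132), and ALKBH5 from 178.1 and 136.6 to 212.3 and 198.7 CPM (0.39, edgeR adjusted p = 0.0481). ALKBH5 sits at the threshold: when either METTL14 library was left out, 1 of the 2 erasers was called.

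Of 13 readers, proteins that bind m6A or RNA opened by it, 12 were tested, and 2 were higher, 6 lower and 4 not called, beside 27.0% higher and 28.1% lower over all genes. Their median log2 fold change was -0.38, beside -0.01 over all genes. HNRNPA2B1 went from 706.5 and 876.0 to 293.3 and 313.5 CPM (-1.38, SE 0.127, edgeR adjusted p = 0.000217) and HNRNPC from 1191 and 1287 to 639.1 and 638.5 CPM (-0.96, SE 0.0974). RBMX was at -0.72 and YTHDC1, the nuclear YTH reader, at -0.57. The 2 called higher were IGF2BP2 (0.54, edgeR adjusted p = 0.00439) and YTHDF1 (0.42, edgeR adjusted p = 0.0131). IGF2BP1, at 3 and 6 counts in control and 6 and 3 in METTL14 libraries, was not tested. Without METTL14 replicate 1, no reader was called higher and 3 were called lower. Without control replicate 1, 10 were called lower, and without METTL14 replicate 2, 1 was called higher.

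Of 5 genes of other N6-adenosine methyltransferases, 1 was higher, 1 lower and 3 not called, no more than over all genes (27.0% higher and 28.1% lower). PCIF1, which methylates the adenosine next to the cap, rose (42.03 and 33.92 to 55.33 and 56.12 CPM, log2 fold change 0.55, edgeR adjusted p = 0.00925). TRMT112, the partner that stabilises METTL5, fell (124.4 and 131.0 to 81.84 and 84.73 CPM, -0.62, edgeR adjusted p = 0.00153). METTL5 (-0.25, edgeR adjusted p = 0.0858) and ZCCHC4 (-0.05), the enzymes of ribosomal RNA, and METTL4 (0.01) did not pass the test. More of the 5 were called lower when either control was left out, where the spread comes from the METTL14 pair alone.

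In the list of S-adenosylmethionine supply and recycling 2 of 5 genes were higher and 2 lower, beside the same 27.0 and 28.1% over all genes. The 2 higher were AHCYL1 and AHCYL2, listed as homologues of AHCY, and the 2 lower were MAT2A and AHCY themselves. Besides MAT2A, AHCY, which clears the S-adenosylhomocysteine left by methylation, fell from 489.5 and 382.3 to 190.7 and 172.7 CPM (2.40-fold lower, log2 fold change -1.26, edgeR adjusted p = 0.000374). Its homologue AHCYL1 rose from 188.0 and 204.7 to 397.2 and 398.9 CPM (2.03-fold, edgeR adjusted p = 0.000246), and AHCYL2 from 40.16 and 41.42 to 52.76 and 53.7 CPM (1.31-fold, edgeR adjusted p = 0.0158). MAT2B, the regulatory subunit beside MAT2A, stood at 80.26 and 78.26 against 79.58 and 77.27 CPM (log2 fold change -0.02, 95% interval -0.24 to 0.20, edgeR adjusted p = 0.902). Fewer of the 5 were called higher when either METTL14 library was left out, where the spread comes from the control pair alone.

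**Figure D5:**
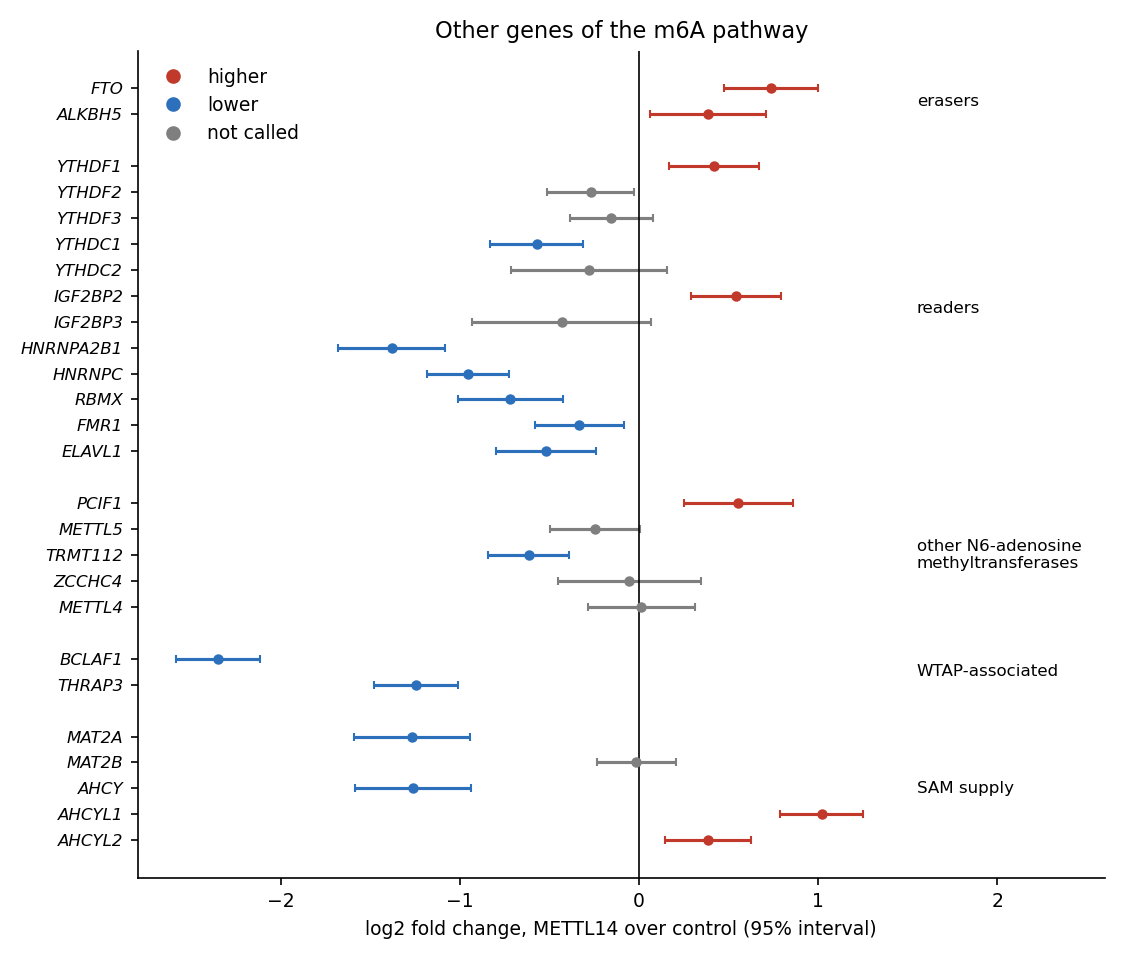
Log2 fold change (METTL14 over control) with its 95% interval for the 26 tested genes of the other m6A pathway lists, coloured by call. BCLAF1 (-2.35) lies lowest and AHCYL1 (1.02) highest; both erasers lie above 0, and the readers lie on both sides.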

How the data were processed

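Poly(A) RNA was sequenced from 4 libraries, 2 per group, grouped and numbered from the sample titles. The submitters' processing notes list fastp, Bowtie2, HISAT2, StringTie and RSEM, without versions, and name hg18 as the build. As 20171 of 20323 gene identifiers are in GENCODE release 29 on GRCh38, the build behind the counts is unclear. Positions, lengths and exon overlaps given are those of GENCODE on GRCh38, and the sources used here do not give the strand setting. The authors deposited unnormalized expected counts for each gene, which were rounded to whole numbers. The 102 rows without a symbol took at most 0.037% of counts.

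Counts were analysed with edgeR 4.0.16 in R 4.3.3 (filterByExpr, minimum count 10, TMM scaling, robust quasi-likelihood test), with Benjamini-Hochberg adjustment over 12700 genes at 0.05. Standard errors and 95% intervals come from the F statistic, are approximate and are not adjusted for the number of genes. The smallest p that an exact two-sided permutation test of 2 against 2 libraries allows is 0.333, so each p-value rests on a spread shared over genes, and it covers the spread between these libraries, which may be technical. Levels per length are CPM divided by the kb of merged exons, with no test. The members and all lists were chosen with earlier results of these data known. Named are all 9 members, genes sharing exons with them, all genes of lists of up to 5, up to 4 readers with the smallest p, and the 3 genes (mean of at least 10 CPM, pseudocount 0.5 CPM) closest to METTL3 and to ZC3H13. The erythroid marker list is not reported here. IGF2BP1, IGF2BP2 and YTHDF1 were named after their values were seen. Alternatives were DESeq2 1.42.0, its size factors, limma-voom (limma 3.58.1), library totals, upper quartile scaling, leaving out mitochondrial genes, other filters, no robust step, the replicate number and leaving out each library, and other lengths. The longest coding transcript as a length, and alternatives for the other lists, were added after seeing the data. Other steps used Python 3.11.15, pandas 2.3.3, numpy 2.4.6 and Biopython 1.88.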

Additional observations from a re-analysis of the deposited data

How the results depend on the processing

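METTL14, METTL3, WTAP and ZC3H13 kept their direction and their call in all 14 alternatives of tool, scaling, filter, model and libraries. For METTL16, leaving out 1 library gave log2 fold changes from -0.57 to -0.23, with the call lost without METTL14 replicate 1 (-0.43) and without METTL14 replicate 2 (-0.38). A fit without 1 library takes its spread from the pair left whole, so calls and counts of calls in such fits also depend on that pair. VIRMA ranged from -0.135 to 0.0083 and CBLL1 from -0.038 to 0.090 when 1 library was left out, and their signs changed without control replicate 2 (0.0083 and -0.038) and, for CBLL1, without METTL14 replicate 1 (-0.011). RBM15 ranged from 0.21 to 0.34 and RBM15B from 0.12 to 0.37. RBM15B was called with library totals (0.30) and upper quartile scaling (0.29). The replicate number was not used for pairing. Over the 12700 genes tested, the difference between replicates 1 and 2 in the controls correlated at 0.044 with that in the METTL14 libraries. With the replicate block RBM15B was called higher (0.25, edgeR adjusted p = 0.0484), and no other member's call changed. The number of members called higher was 2 in place of 1 with library totals, with upper quartile scaling and with the replicate block, and 1 to 3 when 1 library was left out. Over all genes the number called lower ranged from 2307 to 4575 when 1 library was left out. When 1 library was left out, the numbers called higher ranged from 0 to 2 for readers, 1 to 2 for erasers and 1 to 2 for S-adenosylmethionine genes, and the numbers called lower from 3 to 10 for readers and 1 to 2 for other methyltransferases. The ratio of METTL14 to METTL3 was 0.429 (controls) and 10.8 (METTL14) with the coding length, 0.102 and 2.55 with the longest coding transcript, and 8.45 with METTL14 when no length was used. Each member had at least 348 counts in every library, and the number of libraries limits the size of change that can be called. The causes of these differences were not tested.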
